A study of Mus musculus with 4 samples.

Results

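The Polycomb repressive complex genes described here were the 10 genes Ezh1, Ezh2, Suz12, Eed, Jarid2, Ring1, Rnf2, Bmi1, Cbx2 and Cbx7. They were taken by symbol from the 47937 gene rows of a count table, and each symbol matched 1 row. No measured value was used to pick them, though earlier results of these data were known. All 10 had enough counts to be tested, among 16240 genes that did. The table came from total RNA sequencing of wild-type mouse embryonic fibroblasts (MEFs), connective tissue cells cultured from mouse embryos. An untreated group was compared with a group exposed to 50 µM genistein, a soy isoflavone that inhibits tyrosine kinases and topoisomerase II, for 24 h, with 2 libraries per group. All 4 libraries were of the same named cell type and carried no other labelled allele or agent. Titles of the untreated libraries name wild-type cells, while those of the genistein libraries name MEFs without a genotype. The labels do not say whether the untreated cells received solvent. Nothing in the labels ties the libraries of a group to separate cultures, so p-values measure the spread between these libraries, which may be technical.

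Polycomb proteins keep developmental genes silent by modifying histones. Polycomb repressive complex 2 (PRC2) methylates histone H3 at lysine 27 (H3K27). Its catalytic subunit is EZH2 or the related EZH1, bound to the core proteins SUZ12 and EED, and JARID2 is one of its accessory proteins. Polycomb repressive complex 1 (PRC1) ubiquitinates histone H2A through RING1 or RNF2 (also called RING1B), paired with a PCGF protein such as BMI1. Canonical PRC1 also holds a CBX protein, which binds methylated H3K27, and a PHC protein. In fibroblasts BMI1 is known for holding down the Cdkn2a locus, which encodes cell cycle inhibitors.

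Of the 10 genes, 1 was higher (Ezh1) and 5 were lower (Ezh2, Suz12, Ring1, Rnf2 and Bmi1) with genistein at an adjusted p under 0.05, and 4 did not pass (Eed, Jarid2, Cbx2 and Cbx7). Bmi1 fell the most, with 0.567 of its untreated level left, and Ezh1 rose 1.58-fold. The response to genistein was broad, and 71.7% of all genes tested passed the same threshold, 38.2% lower and 33.5% higher, so that 6 of 10 Polycomb genes is not above the background. The median log2 fold change of the 10 genes was -0.15 and the median of its absolute size was 0.23, beside -0.03 and 0.44 over all genes. With library totals alone the median of the 10 was -0.08, and with factors from genes alone -0.11. None of the 10 passed the full set of thresholds (adjusted p under 0.05, absolute log2 fold change over 1 and mean normalised count over 100), which 8.08% of all genes did. The untreated and genistein libraries did not overlap for 8 of the 10 genes, 2 higher and 6 lower, while this held for 85.3% of all genes. Folds, standard errors (SE) and p-values throughout are from the quasi-likelihood test of edgeR, and p-values were adjusted by Benjamini-Hochberg over every tested gene and repeat.

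**Figure D1:**
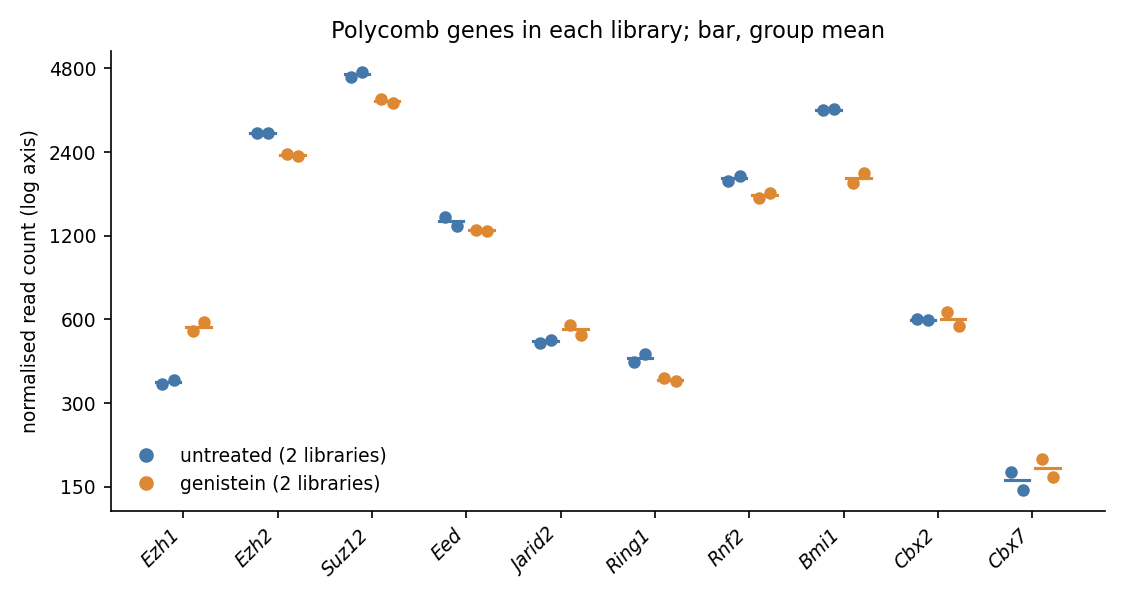
Normalised read count (log axis) of the 10 Polycomb genes in each library, with points for the 2 untreated and the 2 genistein libraries and a bar for the group mean. The genistein points of Bmi1 lie at 1858 and 2018, below 3412 and 3419 in the untreated libraries, those of Ezh1 lie above the untreated points, and the groups of Cbx2 and Cbx7 overlap.

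Levels were compared between genes as normalised counts per kilobase of exon, over the union of all annotated exons of a gene. This length is the same in all libraries, but orders, shares and sums between genes depend on the annotated isoforms. In untreated cells the order from highest to lowest was Suz12 (927 ± 26.6, SD, n = 2), Bmi1 (859 ± 1.08), Rnf2 (468 ± 12.2), Ezh2 (421 ± 0.889), Eed (353 ± 16.8), Cbx2 (141 ± 1.23), Ring1 (135 ± 6.65), Jarid2 (51.6 ± 0.847), Ezh1 (48.1 ± 0.998) and Cbx7 (24.4 ± 2.59). The means of Cbx2 and Ring1 lay 5.94 apart, less than the SD of Ring1 (6.65), though both Cbx2 libraries were above both Ring1 libraries. With genistein the order was the same except that Ezh1 (75.9 ± 3.91, SD, n = 2) stood above Jarid2 (56.8 ± 3.31). The gap between Suz12 and Bmi1 was 67.2 per kilobase in untreated cells and 251 with genistein. Jarid2, Ezh1 and Cbx7 were the least abundant of the 10 in both groups.

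Both catalytic subunits of PRC2 changed, in opposite directions. Ezh2 (ENSMUSG00000029687, chr6:47530139-47595341 of GRCm38, minus strand), the main H3K27 methyltransferase of dividing cells, read 2816 and 2808 normalised counts without treatment and 2366 and 2321 after genistein. Both genistein libraries lay below both untreated ones. The mean fell from 2812 ± 5.94 to 2343 ± 31.7 (SD, n = 2), a log2 fold change of -0.26 (SE 0.04, adjusted p = 6.9e-06). Ezh1 (ENSMUSG00000006920, chr11:101191115-101226463, minus strand), the weaker methyltransferase that is more prominent in non-dividing cells, read 353 and 363 normalised counts without treatment and 544 and 585 after genistein. Both genistein libraries lay above both untreated ones, and the log2 fold change was 0.66 (SE 0.07, adjusted p = 5.3e-07). The 2 changes differed by 0.92 on the log2 scale (SE 0.08). Per kilobase of exon, Ezh2 stood 8.90-fold and 8.61-fold above Ezh1 without treatment and 4.85-fold and 4.42-fold above it after genistein. An exact two-sided permutation test of this ratio gave p = 0.333, the smallest that 2 libraries against 2 allow. Ezh1 made up 10.1% and 10.4% of the summed Ezh1 and Ezh2 level per kilobase in the untreated libraries and 17.1% and 18.5% after genistein. The summed level went from 469 ± 0.109 to 427 ± 0.837 per kilobase (SD, n = 2).

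The RefSeq promoter sequences (GRCm38.p6, 250 bases before to 50 bases after the start of a gene) are shown for the 2 catalytic genes because they moved apart. The windows were searched on both strands for short motifs, and a match is a description of the letters, not a site of binding. The stretches below are on the coding strand, 5′ to 3′. Capitals mark CCAAT (or ATTGG, its reverse) and an E2F motif (TTTCCCGC, TTTGGCGC, TTTCGCGC or TTTGCCGC). The Ezh1 stretch (chr11:101226464-101226713, minus strand) held neither. The Ezh2 stretches, both on the minus strand, lie upstream of the RefSeq start (chr6:47595059-47595183) and across that start, within an exon annotated by GENCODE (chr6:47595009-47595038). The GENCODE span of Ezh2 given above begins further upstream than the RefSeq start and so contains both stretches, and distances are counted from the RefSeq start.
Ezh1 upstream: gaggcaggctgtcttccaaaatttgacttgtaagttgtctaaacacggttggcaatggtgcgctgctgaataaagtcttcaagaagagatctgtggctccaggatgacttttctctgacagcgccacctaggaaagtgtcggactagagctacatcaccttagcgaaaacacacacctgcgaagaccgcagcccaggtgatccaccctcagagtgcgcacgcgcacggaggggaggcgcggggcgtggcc
Ezh2 upstream: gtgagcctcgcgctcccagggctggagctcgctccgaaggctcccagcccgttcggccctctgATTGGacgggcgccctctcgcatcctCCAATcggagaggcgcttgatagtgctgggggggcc
Ezh2 across the start: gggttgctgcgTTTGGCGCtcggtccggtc
An E2F motif was present in 2.26% of all 32851 promoter windows and in 2 of the 9 Polycomb genes with a window, Ezh2 and Suz12. CCAAT was present in 37.4% of all windows and in 5 of the 9 (Cbx7, Eed, Ezh2, Jarid2 and Suz12). The windows of the 9 genes had more GC and more CpG sites than the median window. These shares were not matched for base composition, and enrichment was not tested. In Ezh2 the upstream CCAAT letters lay 90 and 64 bases before the start, and the E2F letters began 3 bases after it.

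The core scaffold gene Suz12 fell and Eed did not pass the test. Suz12 (ENSMUSG00000017548, chr11:79993106-80034123, plus strand), without which PRC2 does not assemble, read 4489 and 4675 normalised counts without treatment and 3714 and 3595 after genistein. The groups did not overlap, and the log2 fold change was -0.33 (SE 0.03, adjusted p = 3.7e-07), a decrease of the mean from 4582 ± 131 to 3655 ± 84.1 (SD, n = 2). Eed (ENSMUSG00000030619, chr7:89954654-89980983, minus strand), which binds the H3K27 methyl mark, read 1397 and 1305 normalised counts without treatment and 1262 and 1251 after genistein. The genistein libraries were below both untreated ones, by a margin smaller than the gap within the untreated pair. The log2 fold change of Eed was -0.10 (SE 0.05, 95% confidence interval -0.21 to 0.0016, adjusted p = 0.071). It passed without any filter on low counts (adjusted p = 0.028) and without untreated 2 (adjusted p = 0.021). The exons of Eed overlap those of the antisense transcript E230029C05Rik by 261 bases, which had 24, 15, 17 and 14 raw counts in the 4 libraries.

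The Suz12 promoter is shown because only it and the Ezh2 promoter held an E2F motif among the 9 genes with a window. Bmi1, Ring1 and Rnf2 also fell and held neither E2F nor CCAAT letters. Cbx7, Eed and Jarid2 held CCAAT and did not pass. Any part of these letters in the changes was not tested. Capitals mark, in order, the E2F motif, the cell cycle homology region (CHR, TTTGAA, here in reverse as TTCAAA) and CCAAT in the 250 bases before the start (chr11:79992856-79993105, plus strand).
Suz12 upstream: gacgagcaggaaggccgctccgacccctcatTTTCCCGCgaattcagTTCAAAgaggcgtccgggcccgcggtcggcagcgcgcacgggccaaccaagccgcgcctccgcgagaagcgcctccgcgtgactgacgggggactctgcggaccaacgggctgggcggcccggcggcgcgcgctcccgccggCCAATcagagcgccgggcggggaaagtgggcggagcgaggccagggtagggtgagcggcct
The E2F letters began 219 bases before the start, the CHR letters 203 and the CCAAT letters 61. TTTGAA was present in 17.9% of all windows and in 3 of the 9 genes (Cbx7, Eed and Suz12).

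Jarid2 (ENSMUSG00000038518, chr13:44729474-44921643, plus strand), which helps recruit PRC2 to its targets, read 495 and 507 normalised counts without treatment and 575 and 529 after genistein. Both genistein libraries were higher, but the change did not pass (log2 fold change 0.14, SE 0.07, 95% confidence interval -0.0037 to 0.29, adjusted p = 0.074). The call depended on the scaling, since Jarid2 passed with library totals alone (adjusted p = 0.00998) and with factors from genes alone (adjusted p = 0.024). Without genistein 2 the adjusted p was 0.022.

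**Figure D2:**
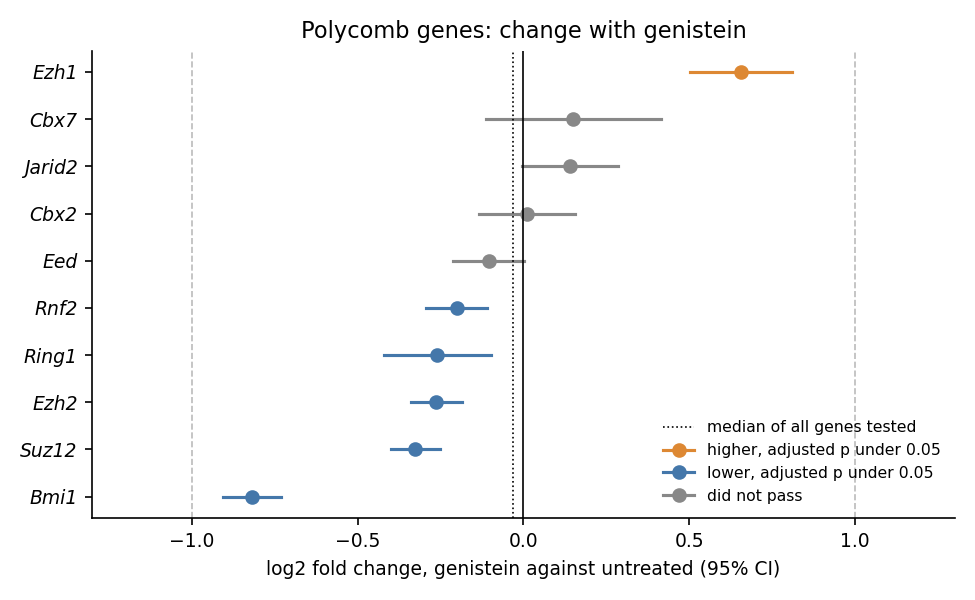
Log2 fold change of the 10 Polycomb genes, genistein against untreated, with 95% confidence intervals; dashed lines mark a log2 fold change of 1 in either direction and the dotted line marks the median of all genes tested, -0.03. Ezh1 at 0.66 is the highest and Bmi1 at -0.82 the lowest, and the intervals of Eed, Jarid2, Cbx2 and Cbx7 include 0.

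Both E3 ubiquitin ligases of PRC1 were slightly lower. Rnf2 (ENSMUSG00000026484, chr1:151458004-151500955, minus strand), the main H2A ligase, read 1895 and 1966 normalised counts without treatment and 1642 and 1717 after genistein. The groups did not overlap, and the log2 fold change was -0.20 (SE 0.04, adjusted p = 0.00055). Ring1 (ENSMUSG00000024325, chr17:34020792-34024680, minus strand), its paralogue, read 422 and 452 normalised counts without treatment and 369 and 359 after genistein. Its groups did not overlap either, and the log2 fold change was -0.26 (SE 0.08, adjusted p = 0.0061). The Ring1 call was lost with DESeq2 (adjusted p = 0.069) and without untreated 2 (adjusted p = 0.062). Rnf2 stood 3.53-fold and 3.42-fold above Ring1 per kilobase without treatment and 3.49-fold and 3.75-fold above it after genistein. The difference between their log2 fold changes was 0.06 (SE 0.09, exact two-sided permutation p = 0.667 for the ratio). Exons of Rnf2 and of the opposite-strand gene Trmt1l share 158 bases, and Trmt1l had 1165, 1099, 935 and 888 raw counts in untreated 1 and 2 and genistein 1 and 2, so a small part of either count could belong to the other if strand was not used in counting.

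Bmi1 (ENSMUSG00000026739, chr2:18677018-18686629, plus strand), also named Pcgf4, is the PCGF subunit tied to self-renewal and to repression of Cdkn2a. It read 3412 and 3419 normalised counts without treatment and 1858 and 2018 after genistein. Both genistein libraries were far below the untreated pair, which differed by little. The mean fell by 43.3%, from 3415 ± 4.31 to 1938 ± 114 (SD, n = 2), a log2 fold change of -0.82 (SE 0.04, 95% confidence interval -0.91 to -0.73, adjusted p = 3.4e-11). The change lay between -0.88 and -0.75 under 10 alternative settings and passed in each. The Bmi1 promoter is shown because this gene changed the most of the 10. Capitals mark an E-box (CACGTG), the letters that MYC and related factors bind, in the 250 bases before the start (chr2:18676768-18677017, plus strand).
Bmi1 upstream: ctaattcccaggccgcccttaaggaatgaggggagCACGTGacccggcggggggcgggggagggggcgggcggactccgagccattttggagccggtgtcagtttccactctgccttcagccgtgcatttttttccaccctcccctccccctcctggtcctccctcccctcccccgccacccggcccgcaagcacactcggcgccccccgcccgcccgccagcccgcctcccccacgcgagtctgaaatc
The E-box began 215 bases before the start. CACGTG was present in 7.15% of all windows, and among the 9 genes in Bmi1 alone. GGGCGG (the GC box) was present in 35.7% of all windows and in 6 of the 9 genes, and the E-box variant CACGCG in 9.27% and in 7 of the 9. TGACGTCA (1.79% of all windows), CCGGAAG (8.86%) and the NRF1 consensus (0.971%) were in none of the 9. The windows of these genes were rich in CpG sites, with 17 to 41 sites each beside a median of 7 over all windows, and had a GC content of 54.7% to 74% beside a median of 52.7%. The table held no window for Cbx2. The other 9 genes had 10 windows, and a gene was counted if any of its windows matched, while the background was counted by window. No enrichment of a motif was tested.

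Bmi1 was set beside the other genes of its family, which were named after their values were seen. PCGF proteins are alternatives to each other in PRC1, and each defines a variant of the complex. Of the 6 PCGF genes, 5 fell and 1 rose, where 71.7% of all genes passed (38.2% lower and 33.5% higher). With DESeq2, 2 of the 5 falls were lost, but it called fewer of all genes too (9359 of 16240, beside 11646 with edgeR). Pcgf6, part of the PRC1.6 complex that silences germ cell genes, went from 721 and 698 to 308 and 299 normalised counts, a log2 fold change of -1.23 (SE 0.07, adjusted p = 1.2e-10). Pcgf3 rose, from 2758 and 2774 to 3745 and 3625 normalised counts, a log2 fold change of 0.41 (SE 0.04, adjusted p = 2.2e-08). Pcgf5, which forms complexes like those of Pcgf3, changed by -0.48 on the log2 scale (adjusted p = 8.9e-06). Pcgf1 and Pcgf2 had values of -0.46 and -0.36 (adjusted p = 0.011 for each), and both calls were lost with DESeq2 (adjusted p = 0.070 and 0.058). The Pcgf1 call was also lost without untreated 1 (-0.26, adjusted p = 0.14) or genistein 2 (-0.33, adjusted p = 0.084), and that of Pcgf2 without untreated 2 (-0.21, adjusted p = 0.14) or genistein 2 (-0.24, adjusted p = 0.075). The summed PCGF level per kilobase of exon went from 1522 ± 6.30 to 1106 ± 2.46 (SD, n = 2), a ratio of 0.727. Bmi1 made up 56.2% and 56.7% of that sum in the untreated libraries and 42.3% and 45.8% after genistein. Pcgf3 made up 18.9% and 19.1% without treatment and 35.5% and 34.3% after genistein. By this measure Bmi1 remained the most abundant PCGF gene per kilobase while the distance to Pcgf3 narrowed.

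The 2 CBX genes did not pass. Cbx2 (ENSMUSG00000025577, chr11:119022962-119031270, plus strand), a reader of methylated H3K27 that also compacts chromatin, read 602 and 595 normalised counts without treatment and 637 and 568 after genistein. The groups overlapped, and the log2 fold change was 0.01 (SE 0.07, 95% confidence interval -0.13 to 0.15, adjusted p = 0.89), with a sign that turned under some alternatives (-0.07 to 0.09). Cbx7 (ENSMUSG00000053411, chr15:79915807-79971119, minus strand), a reader known from stem cells and from repression of Cdkn2a, had the lowest counts of the 10, 170 and 146 normalised counts without treatment and 188 and 162 after genistein. Its groups overlapped too, and the log2 fold change was 0.15 (SE 0.12, 95% confidence interval -0.11 to 0.41, adjusted p = 0.29). At this depth a change of Cbx7 of that size could not be told from none. Its exons share 100 bases with Apobec3 on the opposite strand, which had 760, 741, 1134 and 964 raw counts. Set beside them were Cbx6 and Cbx8, other Polycomb CBX genes. Cbx6, the most abundant of the 4 per kilobase, fell (log2 fold change -0.34, adjusted p = 8.8e-08). Cbx8 rose (0.31, adjusted p = 0.0035), a call lost with DESeq2 (adjusted p = 0.067). The summed level of these 4 CBX genes per kilobase went from 705 ± 3.96 to 631 ± 15.9 (SD, n = 2).

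**Figure D3:**
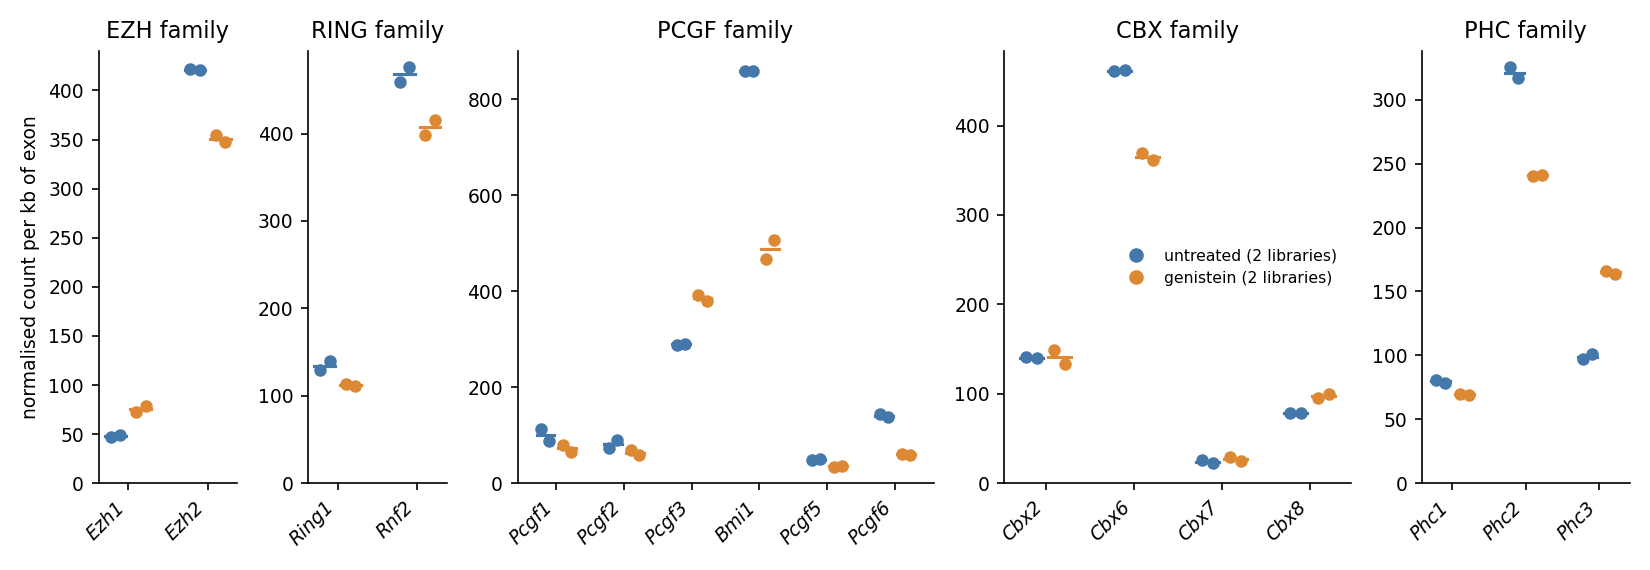
Normalised count per kilobase of exon in each library for the EZH, RING, PCGF, CBX and PHC families, with points for the 2 untreated and the 2 genistein libraries and a bar for the group mean; each panel has its own linear axis from 0. Bmi1 approaches Pcgf3 and Ezh2 approaches Ezh1 with genistein, Phc3 rises from 99.0 to 165 while Phc2 falls from 321 to 241, and Rnf2 and Ring1 are both lower.

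The PHC genes, whose proteins link PRC1 complexes into larger assemblies, also diverged. Phc3 rose from 1693 and 1769 to 2909 and 2867 normalised counts (log2 fold change 0.74, SE 0.04, adjusted p = 6.2e-11). Phc2 fell from 2299 and 2237 to 1698 and 1704 (log2 fold change -0.42, SE 0.04, adjusted p = 8.6e-08). Phc1 differed by -0.20 on the log2 scale (adjusted p = 0.026). That call was lost under 6 of 10 alternatives, among them library totals (adjusted p = 0.14), DESeq2 (0.17) and the fits without untreated 1 (0.13), genistein 1 (0.051) or genistein 2 (0.066). The share of Phc3 in the summed PHC level per kilobase was 19.2% and 20.4% without treatment and 34.9% and 34.6% after genistein, and the sum itself went from 499.7 ± 4.90 to 475 ± 1.84 (SD, n = 2).

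A list of 34 other Polycomb genes (further PRC2 and PRC1 subunits, and enzymes that remove the marks with their cofactors) was compared, and all were tested. Of these, 10 rose, 18 fell and 6 did not pass, beside 71.7% called among all genes (38.2% lower and 33.5% higher). The median log2 fold change of the 34 was -0.23. Of the 8 other PRC2 subunits, 3 rose and 3 fell. Epop, which tunes PRC2 at active genes, fell the most, from 278 and 259 to 109 and 100 normalised counts (log2 fold change -1.36, SE 0.11, adjusted p = 1.7e-08). The histone-binding subunit Rbbp7, shared with other chromatin complexes, fell by 0.72 on the log2 scale (adjusted p = 1.1e-10). The accessory subunits Phf1 and Aebp2 rose, with log2 fold changes of 0.49 and 0.43 (adjusted p = 0.00037 and 1.4e-08). Of the 20 other PRC1 subunits, 6 rose, 12 fell and 2 did not pass, beside 38.2% of all genes lower and 33.5% higher. Bcorl1, a corepressor of the PCGF1 complex, had the highest value, from 286 and 291 to 522 and 483 normalised counts (log2 fold change 0.80, SE 0.08, adjusted p = 1.2e-07). L3mbtl2, which like Pcgf6 belongs to PRC1.6, fell by 0.61 on the log2 scale (adjusted p = 9.4e-09). Epop and Pcgf6 were the only genes of this list with an absolute log2 fold change over 1.

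Among the 6 genes whose products oppose Polycomb (demethylases of H3K27, deubiquitinases of H2A, and the BAP1 cofactors Asxl1 and Asxl2), 1 rose, 3 fell and 2 did not pass. Over all genes 71.7% passed, 38.2% lower and 33.5% higher. Kdm6b, an H3K27 demethylase, rose from 404 and 402 to 770 and 602 normalised counts (log2 fold change 0.77, SE 0.09, adjusted p = 1.8e-06). The genistein pair of Kdm6b was itself spread, but both lay above the untreated pair. The related demethylase Kdm6a differed by 0.09 on the log2 scale (adjusted p = 0.11), and passed with library totals (adjusted p = 0.0096), with factors from genes alone (0.022) and without untreated 2 (0.043). The H2A deubiquitinases Bap1 and Usp16 fell, with log2 fold changes of -0.41 and -0.27 (adjusted p = 2.0e-07 and 2.3e-05).

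**Figure D4:**
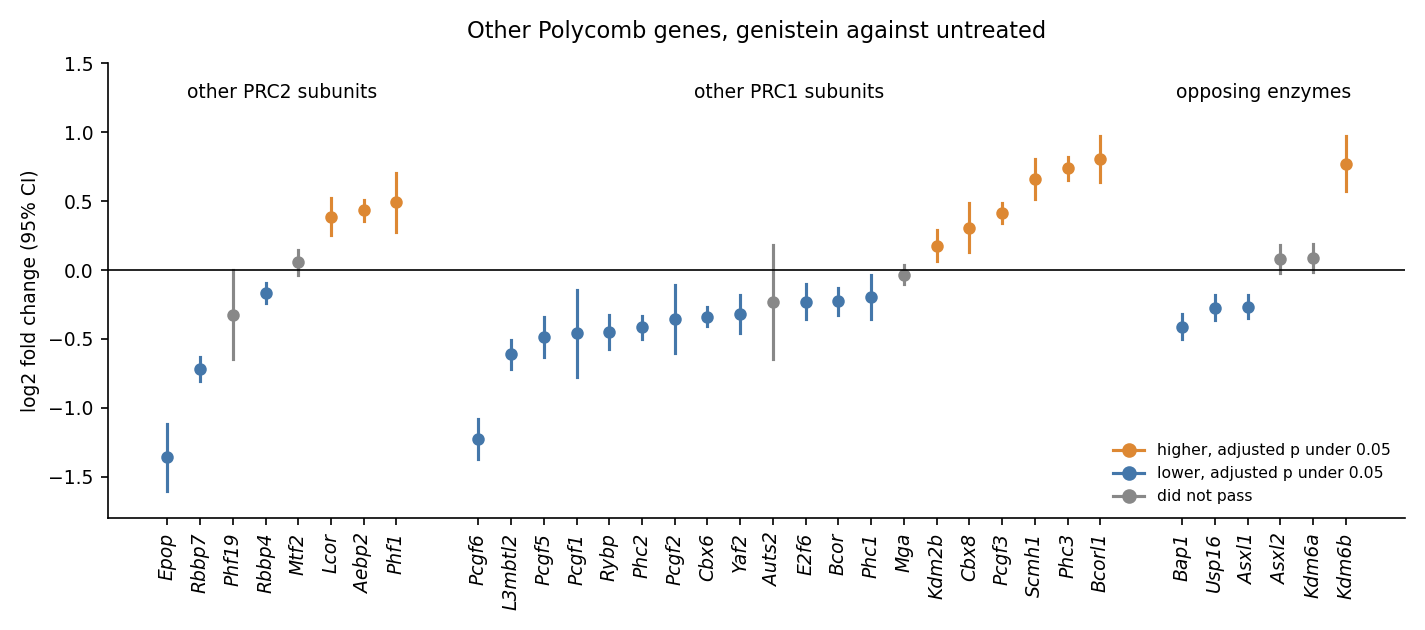
Log2 fold change with 95% confidence intervals for 34 other Polycomb genes, genistein against untreated, sorted within other PRC2 subunits, other PRC1 subunits and opposing enzymes (with their cofactors Asxl1 and Asxl2). In each group genes lie on both sides of 0, with Epop (-1.36) and Pcgf6 (-1.23) the lowest and Bcorl1 (0.80) the highest.

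Known targets of Polycomb silencing were then examined, from a list of 19 developmental and cell cycle genes, of which 13 had enough counts. Of the 13, 4 rose, 6 fell and 3 did not pass, a share close to the 71.7% of all genes. The median log2 fold change was -0.03 and turned sign with the scaling, to 0.04 with library totals and 0.01 with factors from genes alone. The other 6 (Pax6, Sox1, Olig2, Neurog2, Tbx5 and Nkx2-2) had 0 or 1 raw count in each library. Mean untreated levels of the 13 ran from 152 (Lhx2) to 9645 (Ccnd2) normalised counts, so none of them was silent here. Whether their changes reflect Polycomb silencing was not tested. Cdkn2a, the classical target of Bmi1 in fibroblasts, read 1778 and 1649 normalised counts without treatment and 1533 and 1577 after genistein (log2 fold change -0.14, SE 0.05, adjusted p = 0.013). The Cdkn2a call was lost under 5 of 10 alternatives: with library totals (adjusted p = 0.21), factors from genes alone (0.072) and DESeq2 (0.065), and without untreated 1 (0.15) or genistein 1 (0.081). Its neighbour Cdkn2b differed by -0.03 on the log2 scale (adjusted p = 0.61), with a sign that turned with the scaling. Both were picked from the list after its values were seen, as the genes that Bmi1 is best known for repressing. Igf2, an imprinted growth factor gene, was the highest of the list and went from 6635 and 6932 to 14061 and 12656 normalised counts (log2 fold change 0.98, SE 0.05, adjusted p = 6.3e-11). Sox9, a regulator of cartilage formation, rose by 0.65 on the log2 scale (adjusted p = 4.0e-05). The homeobox gene Lhx2 and the zinc finger gene Gata6 were the lowest, with log2 fold changes of -0.55 and -0.31 (adjusted p = 0.0012 and 2.2e-06). The histone marks themselves were not measured here.

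For comparison with another repressive system, 10 genes for histone H3 lysine 9 and H4 lysine 20 methyltransferases and heterochromatin protein 1 (HP1) were counted in the same way. Of these, 1 rose, 7 fell and 2 did not pass, beside 71.7% called and 38.2% lower among all genes, with a median log2 fold change of -0.34 beside -0.15 for the 10 Polycomb genes. The difference between the lists was not tested. The H3 lysine 9 methyltransferase Suv39h2 and the HP1 gene Cbx3 were the lowest (log2 fold changes of -1.01 and -0.73, adjusted p = 3.2e-10 and 1.4e-11). The highest were the H4 lysine 20 methyltransferase Kmt5c (0.49, adjusted p = 0.00018) and the H3 lysine 9 methyltransferase Ehmt1 (-0.02, adjusted p = 0.58).

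Genes of the cell cycle moved in the same libraries, and their counts stand beside 38.2% of all genes lower and 33.5% higher. Of 18 G1/S genes, 17 fell and 1 rose, with a median log2 fold change of -0.58. Of 18 G2/M genes, 3 rose, 9 fell and 6 did not pass, with a median of -0.11. The replication gene Mcm5 and the cyclin gene Ccne2 had log2 fold changes of -0.60 and -1.41 (adjusted p = 2.2e-10 and 3.3e-11), and the transcription factor gene E2f1 was the one that rose (0.65, adjusted p = 1.6e-07). Cdk1 fell (-0.40, adjusted p = 1.3e-07), while Ccnb1 and Top2a had values of -0.04 and -0.09 (adjusted p = 0.33 and 0.069). The paper reports, from DNA content, that this exposure left most MEFs in the G2/M phase. The part of the cell cycle in the changes of Ezh2, Suz12 and the other Polycomb genes was not tested. In a bulk sample, fewer cells of a type and less RNA per cell cannot be told apart.

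The labelled cell type and the libraries were checked. Total counts over genes and repeats lay between 28591958 and 31464284 per library. Of 10 fibroblast markers, 9 were tested, 7 of them lower and 1 higher with genistein, and Thy1 was at 0 in all libraries. They summed to 467981 and 479588 normalised counts without treatment and to 446994 and 437094 after genistein. Sums of other cell type markers were small beside these, though they moved. They were 506 to 511 and 168 to 169 for 6 epithelial markers (Epcam at 0), 193 to 210 and 546 to 570 for 6 blood cell markers (Adgre1 and Cd3e at 0), 25.0 to 30.7 and 85.3 to 98.2 for 5 endothelial markers, 128 to 159 and 284 to 304 for 5 muscle markers (Myod1 at 0; of the 2 tested, Des rose and Tnnt2 fell), and 33.0 to 37.1 and 49.7 to 56.7 for 5 pluripotent cell markers (Zfp42 and Dppa3 at 0), each given as the untreated and then the genistein range. Their part in the Polycomb results was not tested.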

How the data were processed

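Total RNA of MEF cells was sequenced by the authors from ribosomal RNA-depleted, stranded libraries with paired ends. Reads were trimmed with Trim Galore, aligned with STAR to mm10 (GRCm38) with multi-mapping reads kept, and counted with TEtranscripts on GENCODE genes and repeats; the strand option of the counter is not given in the sources used here. The values the authors deposited are raw counts per gene and repeat, not normalised. One entry without a name (0.00208% to 0.00314% of a library) was left out.

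Symbols, coordinates and exon lengths were taken from a GENCODE annotation of GRCm38, a different release from the one the authors counted on. Counts were fitted with edgeR 4.0.16 in R 4.3.3 (filterByExpr by group, TMM, quasi-likelihood test, Benjamini-Hochberg adjustment over all kept genes and repeats), with checks on simulated data. Counts were normalised by dividing by the TMM-scaled library size and multiplying by its mean over the 4 libraries. The SE is the log2 fold change divided by the square root of F. Replicate counts differed beyond sampling noise, with a chi-square per degree of freedom of 5.92 and 13.3 for the 2 pairs, and were kept separate. Reads carried no molecular identifiers, so PCR copies are not separate molecules.

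The genes and lists were chosen with earlier results of these data known. All 10 genes were named; from the other lists, genes past an absolute log2 fold change of 1 and the 2 highest and 2 lowest, with 6 cell cycle genes. The PCGF, CBX and PHC families, Cdkn2a and Cdkn2b were added after their values were seen. Of the listed genes, 2 are not reported here, and lists and sums were computed without them. Alternatives covered scaling, filter, tool (DESeq2 1.42.0), replicate block and leaving out each library.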

Additional observations from a re-analysis of the deposited data

How the results depend on the processing

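Across 10 alternatives, Ezh1 (0.61 to 0.73), Ezh2 (-0.29 to -0.19), Suz12 (-0.36 to -0.26), Rnf2 (-0.23 to -0.13) and Bmi1 kept their direction and their call, and Ring1 (-0.32 to -0.19) kept its call in 8. Eed (-0.16 to -0.04) passed in 2 and Jarid2 (0.08 to 0.21) in 3, while Cbx2 and Cbx7 (0.04 to 0.26) passed in none. The number of the 10 genes that passed lay from 5 to 7, and that of the 34 other Polycomb genes from 23 to 30. Both lowest numbers came with DESeq2, which called fewer of all genes too (9359 of 16240, beside 11646 of 16240 with edgeR). Over 46 genes followed singly, 430 of 460 values kept their side of the threshold, 20 lost and 10 gained the call, and 0 called values turned direction. Some of the 46 were picked for large changes in these same libraries, so the count does not measure how stable an unpicked gene would be. The causes of the lost calls were not tested. The median of all genes was 0.04 with library totals and 0.01 with factors from genes alone, so scaling moved it by less than 0.1. With the replicate block, 6 of the 10 genes and 28 of the 34 passed, as without it. Libraries with the same number did not deviate together (correlation -0.03). With 2 libraries per group this cannot decide whether they were paired, and the labels give a shared number but name no pairing. Depth limits Cbx7 the most, with 138 to 201 raw counts per library.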
